A study of Mus musculus with 24 samples.

Results

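Vit and Sned1 encode secreted proteins of the extracellular matrix, and both were among the genes with higher transcript levels in the jaws of mouse embryos that lack the type II TGF-beta receptor in the neural crest. They were taken from the deposited array values as all probe sets that the platform annotation maps to either gene alone. Each gene had 1 such probe set, so the results concern 2 genes of the 18194 with a probe set of their own. Both passed the filter on low values, as did 13850 genes in all, and both did so in control arrays as well as in mutant arrays. Sned1 was brighter than the 40th percentile on all 24 arrays. Vit did so on 12 of 12 mutant arrays and on 9 of 12 control arrays. Where the probes lie within the transcripts is not given.

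Both genes were chosen because they were higher in mutant arrays in an earlier examination of these same values. The genotype differences below are therefore given as a description, with their standard errors and no test. The comparisons of jaw ends and of jaws within a genotype did not choose the genes and were tested, though those within mutants share the mutant arrays. Differences of the genotype effect between regions were tested too. In this balanced design they do not depend on the average genotype effect. They are built from the effects in single regions, so they are not free of the choice where it drew on a single region.

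Tissue came from embryos at embryonic day 13.5, on a background labelled C57B6. Mutants carried Wnt1cre and the floxed allele of Tgfbr2, came from crosses of Tgfbr2fl/fl with Wnt1cre;Tgfbr2fl/+ animals, and were picked out by cleft palate and a skull vault defect. Controls were littermates, and by this cross each inherits a floxed allele from the Tgfbr2fl/fl parent. Their other Tgfbr2 allele and whether they carry Cre are not given. The Wnt1cre transgene acts in the neural crest, so that skeletal muscle, epithelium, endothelium and blood keep the receptor. Mandible and maxilla were each cut into a distal and a proximal end, which gives 8 groups of 3 arrays: control and mutant, each for the distal and the proximal end of either jaw. Whether the replicates are separate embryos, or pools of embryos, is not given, so p-values reflect the spread over these samples alone, and that spread may be technical. The values are log2 levels made with RMA (robust multi-array average), and their number limits the precision.

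Vitrin, the product of Vit, is a matrix protein first found in the vitreous body of the eye. It has an LCCL domain and von Willebrand factor A domains, a pairing it shares with cochlin. The product of Sned1 is a large secreted glycoprotein with a nidogen-type (NIDO) domain, a sushi domain, and many EGF-like and fibronectin type III repeats. Mice without Sned1 are known to have craniofacial malformations. TGF-beta itself signals through a complex of type II and type I receptors to SMAD proteins, and many of its known target genes encode matrix proteins.

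In the RefSeq annotation of assembly GRCm38.p6, Vit spans chr17:78508051-78627409 and Sned1 spans chr1:93235796-93301065. The promoter of Sned1 is shown as the sequence context of a transcript that was higher in the mutants. The RefSeq promoter table counts from a start at base 93235897, which lies 101 bases inside the gene as annotated, so the window was ended before the annotated gene start. Its 149 bases, at chr1:93235647-93235795 on the plus strand, read as follows, with the GC box in capitals.
Sned1: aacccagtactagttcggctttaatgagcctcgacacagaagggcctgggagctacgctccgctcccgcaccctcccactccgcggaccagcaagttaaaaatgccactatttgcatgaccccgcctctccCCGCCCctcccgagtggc

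The window was 61.1% G and C, against a median of 51% over 32851 windows cut at the same distance from the starts in the promoter table, and it held 10 CG dinucleotides. Motifs were searched on both strands. The GC box (GGGCGG, read here as CCGCCC) was found once, its first base at position -18 from the annotated gene start and -119 from the start in the promoter table, and 16.6% of all windows hold it. The SMAD box (CAGAC), the AP-1 motif (TGANTCA), the TATA box (TATAAA) and the TEAD motif (CATTCC) were not found among these letters. Of all windows, 28.5%, 4.0%, 7.3% and 8.0% hold them. These are matches of letters only. The promoter of Vit was not examined.

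Some facts of the whole series bear on what follows. The brightest of 3 probe sets of Tgfbr2 read from 11.94 to 12.33 in control arrays (median 12.10) and from 12.20 to 12.68 in mutant arrays (median 12.40), n = 12 each, so it did not fall. A probe set outside the deleted part would check nothing, and its place is not given. The term set stands for the 4 arrays of one genotype with the same replicate number. Xist and the mean of 3 Y-linked genes (Eif2s3y, Kdm5d and Uty) were both high in mutant sets 2 and 3 (Xist 13.52 and 13.19, Y-linked 8.81 and 9.20), while each control set and mutant set 1 was high in 1 of them. The Gapdh control probes at the 3' end exceeded those at the 5' end by log2 0.01 to 0.07 in the control sets and 0.06 in mutant set 2, but by 0.46 and 0.54 in mutant sets 1 and 3. Jaw mesenchyme markers (Prrx1, Prrx2, Twist1, Msx1, Msx2 and Pdgfra) lay above the 40th percentile on all 24 arrays. Hand2, a mandibular regulator, was higher in control mandible than in control maxilla by log2 5.16 distally and 3.52 proximally. Dlx5 and Dlx6, other genes of the mandibular arch, differed by -0.08 to -0.21. Cartilage markers set 1 array apart: their mean log2 level was 11.82 in mutant distal maxilla replicate 1, against 7.81 and 7.61 in replicates 2 and 3. Results that rest on that array are given without it too.

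Vit was higher in mutant than in control arrays in all 4 regions, and most so in the proximal mandible. There the control arrays read 7.08, 7.29 and 7.07 in log2 and the mutant arrays 9.10, 9.35 and 9.40, a difference of 2.13 ± 0.212 (SE, n = 3), or 4.39-fold. Every mutant array lay far above every control array here. In the proximal maxilla the control arrays read 7.73, 7.05 and 7.70 and the mutant arrays 8.72, 8.67 and 9.18, a difference of 1.36 ± 0.212. In the distal maxilla the control arrays read 6.66, 5.95 and 5.99 and the mutant arrays 7.48, 7.66 and 7.42, a difference of 1.32 ± 0.212. The dimmest readings of Vit, 5.95 and 5.99, were those of control distal maxilla replicates 2 and 3. They lay below the 40th percentile of their arrays, which ran from 6.26 to 6.34 over all arrays. Control distal mandible replicate 2, at 6.26, was also below that of its array. In the distal mandible the control arrays read 6.90, 6.26 and 6.84 and the mutant arrays 7.48, 7.39 and 7.75, a difference of 0.87 ± 0.212, or 1.83-fold. This was the smallest of the 4 differences, and even here no mutant array fell into the control range.

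Sned1 was also higher on average in every region, with more spread between arrays. In the distal maxilla the control arrays read 7.63, 7.60 and 8.52 and the mutant arrays 9.99, 8.52 and 9.83, a difference of 1.53 ± 0.343 (SE, n = 3), or 2.89-fold. The lowest mutant array and the highest control array nearly touched. That difference was 1.99 without mutant set 2, 1.26 without the array with high cartilage markers, and 0.61 with mutant set 2 as the only mutant set. In the proximal maxilla the control arrays read 9.44, 9.03 and 9.39 and the mutant arrays 11.06, 10.21 and 10.68, a difference of 1.36 ± 0.343. This held the highest readings of Sned1 in the study. In the proximal mandible the control arrays read 8.96, 8.65 and 8.98 and the mutant arrays 9.76, 9.90 and 9.98, a difference of 1.02 ± 0.343. In the distal mandible the control arrays read 8.23, 9.36 and 8.38 and the mutant arrays 9.63, 9.27 and 9.19, a difference of 0.71 ± 0.343 with a 95% interval from -0.01 to 1.43. Here the groups overlapped, since control replicate 2 lay above mutant replicates 2 and 3. Without control set 2 the difference was 1.06.

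**Figure D1:**
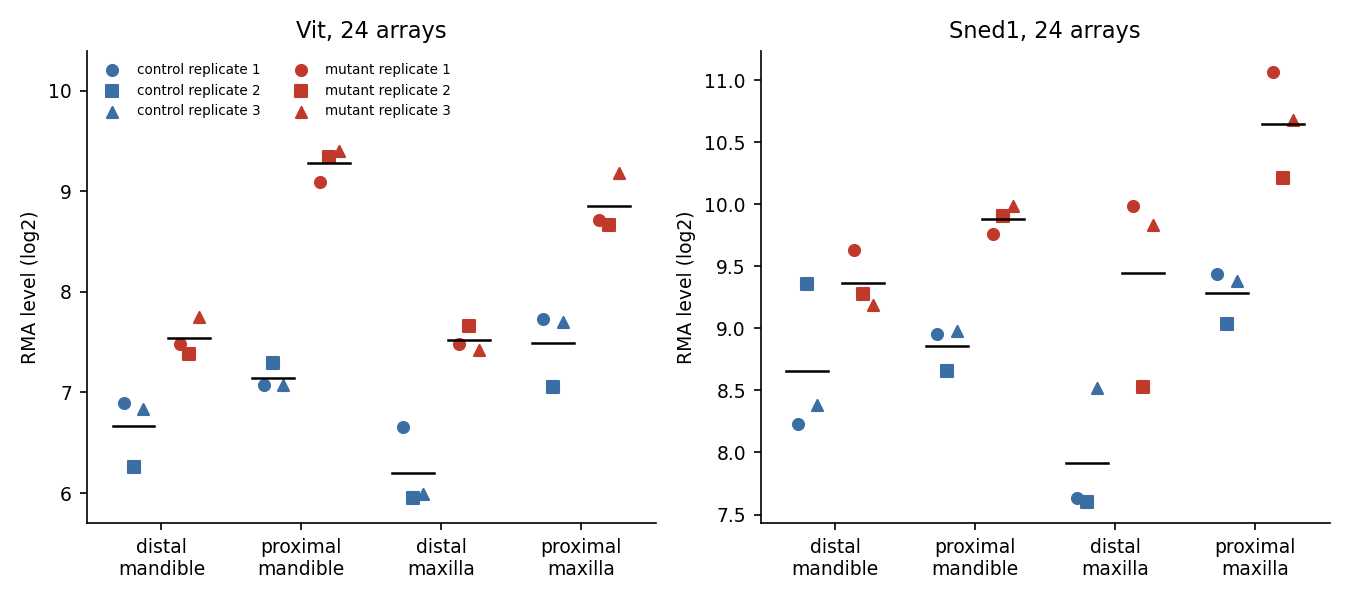
RMA level in log2 (y axis) of Vit and Sned1 on each of the 24 arrays by region (x axis), with control arrays in blue, mutant arrays in red, a marker shape for each replicate number and a black line at each group mean of 3. All 12 mutant arrays of Vit lie above the control arrays of their region, while for Sned1 control replicate 2 of the distal mandible lies among the mutant arrays.

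All 12 mutant arrays lay above every control array of their region for Vit, and 10 of 12 did for Sned1. Mutant arrays lay wholly above control arrays for 9.26% of all genes in the distal mandible, 15.4% in the proximal mandible, 12% in the distal maxilla and 13.9% in the proximal maxilla. These shares are given as background to the choice of the genes.

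Averaged over regions the difference was log2 1.42 ± 0.106 for Vit and 1.15 ± 0.172 for Sned1 (SE, n = 12 arrays from 3 sets a genotype). The SEs were 0.166 and 0.291 when arrays of a set were treated as correlated, with set as a random block. Set by set, Vit exceeded the control mean by 1.32, 1.39 and 1.56 in mutant sets 1, 2 and 3. Sned1 did so by 1.43, 0.80 and 1.24. Mutant set 2, the one without the raised Gapdh difference, was therefore in the middle for Vit and lowest for Sned1. Mutant set 1, the one without both kinds of sex-linked transcript, was lowest for Vit and highest for Sned1. In bulk tissue, more cells of a type and more RNA per cell cannot be told apart.

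**Figure D2:**
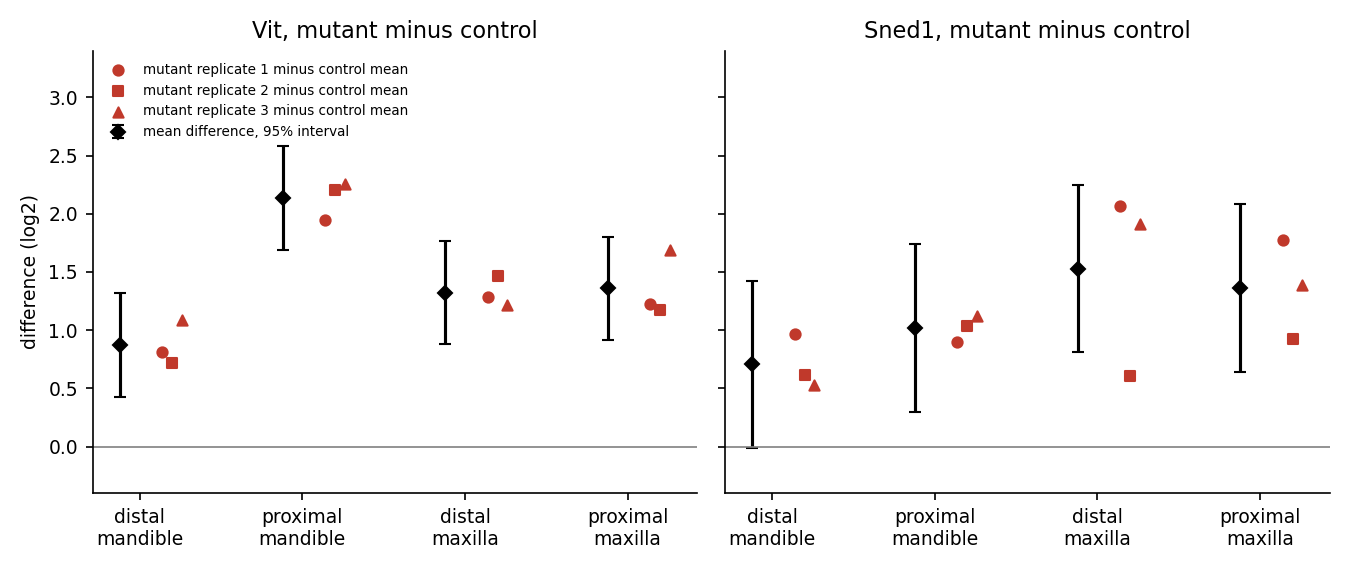
Difference between mutant and control level in log2 (y axis) of Vit and Sned1 in each region (x axis), as the mean difference with its 95% interval (black, n = 3 against 3) and as each mutant array minus the control mean of its region (red, shapes for replicates 1 to 3). Vit differs most in the proximal mandible (2.13), and the 3 mutant arrays of Sned1 in the distal maxilla spread from 0.61 to 2.07.

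Markers of other cell types were read over the average genotype contrast, in which 18.3% of all genes were called higher and 15.5% lower (5.57% and 6.07% with set as a random block). No marker of cartilage passed the test (0 of 9, median log2 0.44), nor of skeletal muscle (0 of 7, median 0.02), neurons (0 of 6, median 0.10) or jaw mesenchyme (0 of 6, median -0.03). Over arrays, the mean log2 level of the cartilage markers ranged from 7.56 to 11.79 in control and from 7.61 to 12.20 in mutant tissue. The tendon list fell in 4 of 5 genes (median -0.47), with ranges of 8.53 to 10.13 in control and 8.12 to 9.23 in mutant arrays. Other lists held calls: 3 of 5 macrophage markers fell (median -0.33), 3 of 5 red blood cell markers fell (-0.31), and of 5 endothelial markers 1 rose and 3 fell (-0.17). Of 5 pericyte and smooth muscle markers 2 rose and 1 fell (0.30), 2 of 3 Schwann cell markers rose (0.20), 1 of 6 epithelial markers rose (0.18) and 1 of 4 bone markers rose (0.19). In the proximal mandible, where Vit differed most, the mean log2 level of the bone markers (Sp7, Ibsp, Alpl and Dmp1) was 11.47 to 11.79 in mutant and 9.96 to 10.93 in control arrays. The part of these tissues in the Vit and Sned1 differences was not tested. In the distal maxilla the cartilage means were 11.82, 7.81 and 7.61 in mutant replicates 1, 2 and 3, and 7.56 to 8.02 in controls. Vit was at 7.48, 7.66 and 7.42 in those mutants and at most 6.66 in controls. Sned1 was at 9.99, 8.52 and 9.83 in those mutants and at most 8.52 in controls, so mutant replicate 2 barely stood apart. The part of cartilage in these levels was not tested.

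Whether the rise differed between regions was tested with 3 differences of the genotype effect, given with 95% intervals. For Vit the estimated effect was smaller distally than proximally by log2 0.65 (difference -0.65 ± 0.212, interval -1.09 to -0.21). The 3-way difference, mandible minus maxilla in that difference between ends, was estimated at -1.22 ± 0.423 for Vit (interval -2.11 to -0.34). The effect of Vit differed between mandible and maxilla by 0.16 ± 0.212 (interval -0.28 to 0.61). For Sned1 the effect was 0.58 ± 0.343 smaller in the mandible than in the maxilla (difference -0.58, interval -1.30 to 0.14), and the difference between ends was -0.07 ± 0.343 (interval -0.79 to 0.65). Its 3-way difference was -0.48 ± 0.687 (interval -1.92 to 0.96). None of the 6 values passed the Benjamini-Hochberg adjustment over 13850 genes (limma adjusted p = 1 for each), and limma called 0 genes, or 0%, in each of the 3 comparisons. At an unadjusted limma p under 0.05 there were 480, 430 and 532 genes for the jaw, end and 3-way differences. These are 3.47%, 3.1% and 3.84% of the 13850 genes. With the set as a random block the adjusted p of the end difference of Vit was 0.286.

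Both genes were higher at the proximal than at the distal end of the control maxilla. The control arrays of Vit read 6.66, 5.95 and 5.99 distally against 7.73, 7.05 and 7.70 proximally, a difference of -1.30 ± 0.212 (limma adjusted p = 0.00074). Those of Sned1 read 7.63, 7.60 and 8.52 against 9.44, 9.03 and 9.39, a difference of -1.37 ± 0.343 (limma adjusted p = 0.02). Neither gene's arrays overlapped between the ends, and every one of the 3 control sets was lower distally. Of all genes, 2.69% were called lower distally in this comparison and 15.7% had arrays wholly lower. The call of Vit was lost without control set 3 (difference -1.09, limma adjusted p = 0.0527). That of Sned1 was lost without any 1 of the control sets (-1.15, -1.34 and -1.62 without sets 1, 2 and 3, limma adjusted p = 0.322, 0.0999 and 0.0659).

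The same direction was seen in the mutant maxilla. Vit was lower distally by -1.33 ± 0.212 (limma adjusted p = 0.00108), and Sned1 by -1.20 ± 0.343 (limma adjusted p = 0.0483). Neither gene's groups overlapped, a pattern that 5.75% of genes had in this direction, while 2.66% were called lower. The array with high cartilage markers belongs to the distal group, and without it the differences were -1.31 (limma adjusted p = 0.00279) and -1.47 (limma adjusted p = 0.0235). The call of Sned1 sits at the threshold: it was lost without any 1 of the 6 sets, control sets included, at limma adjusted p from 0.0539 to 0.167. Without mutant set 2 the difference of Sned1 was -0.96.

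In the mandible Vit was called between the ends in mutants, and Sned1 in neither genotype. In mutants Vit was lower distally by -1.74 ± 0.212 (limma adjusted p = 1.36e-05), its largest end difference, with 7.48, 7.39 and 7.75 against 9.10, 9.35 and 9.40. In controls the difference of Vit was -0.48 ± 0.212 and did not pass (limma adjusted p = 0.16), although the arrays did not overlap. The corresponding differences of Sned1 were -0.52 ± 0.343 in mutants (limma adjusted p = 0.366), where its arrays did not overlap, and -0.20 ± 0.343 in controls (limma adjusted p = 0.805), where they did. Of all genes, 8.33% were called lower distally in the mutant mandible and 7.08% in the control mandible, and 15% and 20.1% had arrays wholly lower. Taken set by set, Vit was lower distally in 6 of 6 sets in each jaw. Sned1 was so in 6 of 6 sets in the maxilla and in 5 of 6 in the mandible, the exception being control set 2 at 0.71.

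Whether the end difference depended on the jaw was tested within each genotype, in comparisons chosen after seeing the data. In controls the difference was less negative in the mandible than in the maxilla by 0.82 ± 0.299 for Vit (limma adjusted p = 0.188) and by 1.16 ± 0.486 for Sned1 (limma adjusted p = 0.278). In mutants the values were -0.41 ± 0.299 for Vit (limma adjusted p = 0.846) and 0.68 ± 0.486 for Sned1 (limma adjusted p = 0.826). None passed, and 2.73% and 1.32% of genes were called in controls and mutants.

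The ends also differed in their tissue makeup. In the control maxilla, where 2.69% of all genes were called lower distally and 3.37% higher, 8 of 9 cartilage markers (such as the collagen gene Col2a1 and the proteoglycan gene Acan) were lower with a median of -2.99. Their mean log2 level was 7.56 to 8.02 distally and 10.44 to 11.54 proximally. Of 6 neuronal markers 4 were lower (8.57 to 8.83 against 10.39 to 10.81) and of 5 tendon markers 2 were lower (9.29 to 9.63 against 9.83 to 10.13). Of 6 epithelial markers 5 were higher (11.16 to 11.38 against 9.82 to 10.04). In the mutant maxilla, with 2.66% of genes lower and 2.48% higher, 3 of 5 tendon markers were lower (8.34 to 8.56 against 9.19 to 9.23) and 4 of 6 epithelial markers were higher (11.14 to 11.80 against 10.41 to 10.86). No cartilage or neuronal marker was called there (medians -1.72 and -1.12), and the cartilage mean ranged from 7.61 to 11.82 distally and from 10.15 to 11.31 proximally. Vit and Sned1 were called lower also without the array that holds the 11.82. In the mandible 6.24% of genes were higher and 7.08% lower distally in controls, and 7.57% were higher and 8.33% lower in mutants. Skeletal muscle markers were lower there, 7 of 7 in controls (8.27 to 9.55 against 11.30 to 11.78) and 6 of 7 in mutants (9.63 to 9.73 against 11.32 to 11.50). Epithelial markers were higher there in 4 of 6 genes in either genotype. Bone markers were lower distally in 1 of 4 genes in controls and 2 of 4 in mutants (9.57 to 10.02 against 11.47 to 11.79). Macrophage markers were lower in 2 of 5 and 3 of 5. Of 5 pericyte and smooth muscle markers 2 were lower and 0 higher in controls, and 2 were lower and 1 higher in mutants. The tendon list was mixed, with 2 of 5 genes lower and 1 higher in each genotype (medians 0.14 and 0.01). Of 6 jaw mesenchyme markers 3 were higher and 1 lower in controls, and 2 were higher and 0 lower in mutants. The part of the tissue makeup in the end differences was not tested.

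Neither gene was called between the jaws at matched ends. In control distal ends the mandible exceeded the maxilla by 0.47 ± 0.212 for Vit (limma adjusted p = 0.236) and by 0.74 ± 0.343 for Sned1 (limma adjusted p = 0.253). In control proximal ends both values had the other sign, at -0.35 ± 0.212 for Vit (limma adjusted p = 0.658) and -0.42 ± 0.343 for Sned1 (limma adjusted p = 0.825). In mutant proximal ends the genes took opposite signs, 0.43 ± 0.212 for Vit (limma adjusted p = 0.315) and -0.77 ± 0.343 for Sned1 (limma adjusted p = 0.246). In mutant distal ends the differences were 0.02 ± 0.212 with an interval from -0.42 to 0.46 for Vit and -0.08 ± 0.343 with an interval from -0.80 to 0.64 for Sned1 (limma adjusted p = 0.992 and 0.973). Genes called in either direction made up 9.21% and 2.61% in control distal and proximal ends, and 4.92% and 5.69% in mutant ones.

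With the replicate number as a block no call of either gene changed, but more genes were called in all. The shares called in both directions were then 23.8% and 11.4% for the ends of the control mandible and maxilla, and 28.5% and 11.1% for those of the mutant. For the jaws they were 14.2% and 4.79% in control distal and proximal ends and 9.09% and 12.4% in mutant ones.

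**Figure D3:**
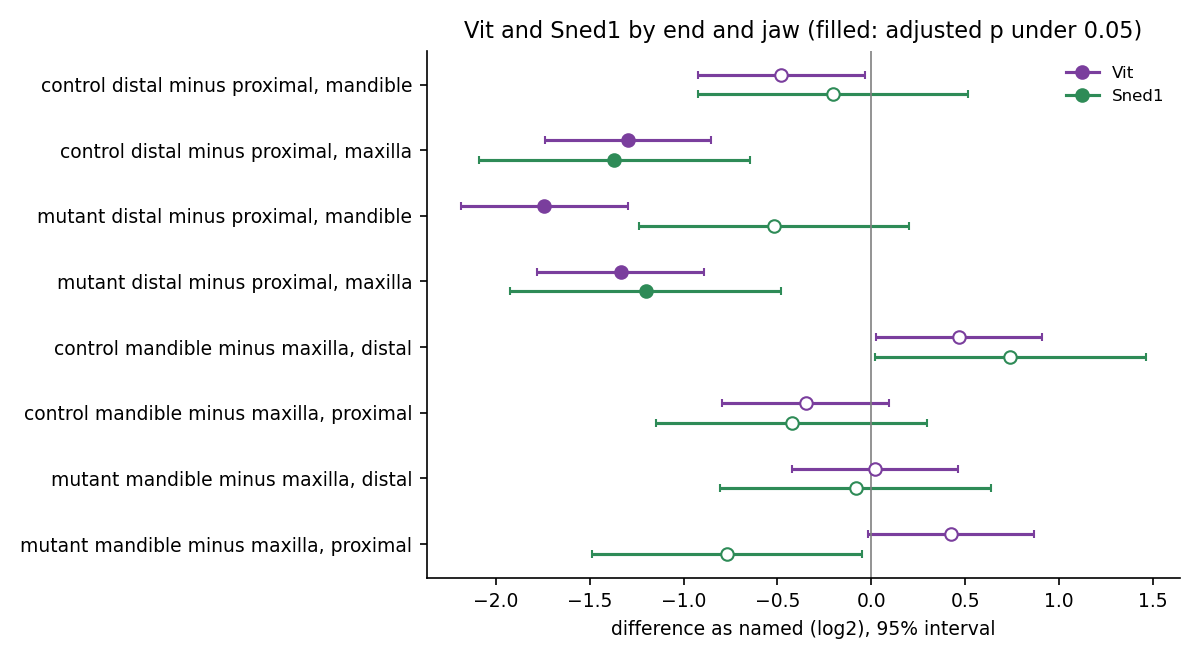
Differences between jaw ends and between jaws (y axis, as named) in log2 (x axis) for Vit (purple) and Sned1 (green), with 95% intervals from the limma fit, n = 3 against 3 arrays. Filled points passed at an adjusted p under 0.05: both genes between the ends of the maxilla in either genotype, and Vit between the ends of the mutant mandible.

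Ordered by level, Vit ran from mutant proximal mandible (9.28 ± 0.163, SD, n = 3) and mutant proximal maxilla (8.86 ± 0.282) down to control distal mandible (6.67 ± 0.35) and control distal maxilla (6.20 ± 0.4). The widest gap, 1.32, separated the proximal mutant groups from the rest. Between them lay mutant distal mandible (7.54 ± 0.191), mutant distal maxilla (7.52 ± 0.126) and control proximal maxilla (7.50 ± 0.386), whose arrays overlapped, and then control proximal mandible (7.15 ± 0.124). Vit at the distal end of mutant jaws thus stood about where it did at the proximal end of the control maxilla. Sned1 ran from mutant proximal maxilla (10.65 ± 0.428) and mutant proximal mandible (9.88 ± 0.114) down to control distal mandible (8.66 ± 0.612) and control distal maxilla (7.92 ± 0.523). Between them lay mutant distal maxilla (9.45 ± 0.803), mutant distal mandible (9.36 ± 0.234), control proximal maxilla (9.29 ± 0.221) and control proximal mandible (8.86 ± 0.181). Only the gaps below mutant proximal maxilla (0.77) and below control proximal maxilla (0.42) separated neighbouring groups of Sned1 without overlap.

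Over the 8 group means the patterns of Vit and Sned1 had a Pearson r of 0.911, where Sned1 ranked 84th among all genes in likeness to Vit. The genes most like Vit were the cytochrome P450 gene Cyp2d22 (0.988), the Golgi membrane protein gene Golm2 (0.987), Tmem19 (0.977), the sorting nexin gene Snx18 (0.971) and Lgi3 (0.969). They ran over much smaller ranges, for example 0.49 log2 units for Cyp2d22 and 0.90 for Lgi3. Those most like Sned1 were the kinase anchoring protein gene Akap11 (0.978), Wdr13 (0.975), Trnp1 (0.97), Dcaf6 (0.963) and Pappa (0.961), a secreted protease that cleaves IGF-binding proteins and whose group means spanned 1.33 log2 units. Because genotype is part of these 8 means, this likeness shares the contrast by which the genes were chosen. Over the 12 control arrays alone, the genes nearest to Vit were Rtl8c (0.956), Itfg1 (0.932) and Pde9a (0.921), and those nearest to Sned1 were Ppp1r9a (0.929), the receptor activity-modifying protein gene Ramp2 (0.912) and Morn1 (0.91). Vit and Sned1 stood at 0.576 to each other there, where Sned1 ranked 1099th. These values describe arrays that share sets and tissue makeup, and no test was made of them.

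Of the 6 genes nearest to Vit on the chromosome all had values, and of the 6 nearest to Sned1 4 did. Crocc2, the nearest before Sned1, has no value here, and Mab21l4 was below the filter on low values. The measured neighbours lay between -0.20 and 0.33 in the average genotype effect. Next to Vit lie the scaffold gene Strn at 0.19 ± 0.0291 (limma adjusted p = 7.61e-05), Heatr5b at 0.18 ± 0.0467 (limma adjusted p = 0.00733) and Gpatch11 at -0.20 ± 0.0754 (limma adjusted p = 0.0444) on one side. On the other side Fez2 was at 0.10 ± 0.0468, the BMP-binding gene Crim1 at 0.33 ± 0.132 and Fam98a at -0.11 ± 0.133, none of which passed. Next to Sned1, Mterf4 fell by 0.20 ± 0.0397 (limma adjusted p = 0.000962), and Pask (0.04), Ppp1r7 (-0.07) and Agxt (-0.09) did not pass. With the set as a random block Strn and Mterf4 passed and the others did not.

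Genes that encode related proteins changed by less than Vit and Sned1. Because Vit and Sned1 were chosen by their genotype difference, this was likely beforehand and is no finding. The related genes were grouped in 4 lists and are described over the average genotype effect. In that contrast limma called 18.3% of all genes higher and 15.5% lower with arrays as replicates. With set as a random block the shares were 5.57% and 6.07%. The median over all genes was 0.02. Arrays of a set deviate together, so the first pair of shares can be too high, and random block counts are given beside each list.

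Of matrix proteins with a von Willebrand A domain, the domain of vitrin, 17 of 20 were tested. Of these 6 rose, 0 fell and 11 did not pass, with a median of 0.21, and 3 rose and 0 fell with the random block. The matrilin gene Matn2, whose product links filaments of the matrix, rose by 0.67 ± 0.11, and another probe set read 0.28. The anchoring fibril collagen Col7a1 (0.36 ± 0.0799) and the collagen VI chain Col6a3 (0.31 ± 0.0481) rose. Col12a1, a collagen at the surface of fibrils, rose by 0.34 ± 0.052 with another probe set at -0.15. The adjusted p of these 4 genes in limma lay between 7.37e-05 and 0.00197, and Col7a1 did not pass with the random block (limma adjusted p = 0.0675). The cartilage matrilin Matn1 stood at 0.97 ± 0.578 and did not pass (limma adjusted p = 0.208), and the cochlin gene Coch, which shares the domain pairing of Vit, was at 0.14 ± 0.165 (limma adjusted p = 0.549).

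Of 19 proteins built like the Sned1 product from NIDO, sushi, EGF-like or fibronectin III domains, 13 were tested. Among them 5 rose, 1 fell and 7 did not pass, with a median of 0.15, and 2 rose and 0 fell with the random block. The nidogens link laminin and collagen IV in basement membranes and carry the NIDO domain. Nid1 rose by 0.45 ± 0.0403, with another probe set at 0.14, and Nid2 rose by 0.30 ± 0.0832. The sushi and EGF domain gene Svep1 (0.43 ± 0.0746) and the NIDO domain gene Susd2 (0.31 ± 0.0804) rose, and so did the fibrillin gene Fbn2. Tenascin C, Tnc, a glycoprotein of EGF-like and fibronectin III repeats, fell by 0.40 ± 0.097. With the random block Nid1 and Svep1 passed, and Nid2, Susd2, Fbn2 and Tnc did not (limma adjusted p = 0.149, 0.0701, 0.0932 and 0.123). The fibronectin gene Fn1 was at 0.09 ± 0.0487 and did not pass (limma adjusted p = 0.166), and another probe set read -0.25.

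Integrins are the cell surface receptors of many matrix proteins. Of 19 subunits 17 were tested, and 3 rose, 0 fell and 14 did not pass, with a median of 0.01 (1 and 0 with the random block). The beta subunits Itgb3 (0.46 ± 0.106) and Itgb8 (0.31 ± 0.0927) rose. So did the alpha subunit Itgav, which pairs with both, by 0.27 ± 0.0347, with another probe set at -0.12. Itgav was the subunit that passed with the random block (limma adjusted p = 0.00272), and Itgb3 and Itgb8 did not (0.0888 and 0.209). The fibronectin receptor subunits Itga5 and Itgb1 were at 0.03 ± 0.0754 and -0.07 ± 0.0743.

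Of 22 genes of matrix assembly and crosslinking 20 were tested, and 3 rose, 2 fell and 15 did not pass, with a median of 0.01 (0 and 2 with the random block). The lysyl oxidase family gene Loxl1 (0.41 ± 0.103), the lysyl hydroxylase Plod2 (0.27 ± 0.103) and the latent TGF-beta binding protein gene Ltbp3 (0.13 ± 0.0439) rose. Other probe sets of Ltbp3 read 0.04, 0.07 and -0.09. The microfibril-associated genes Mfap4 and Mfap2 fell by 0.70 ± 0.0804 and 0.17 ± 0.0306, but another probe set of Mfap2 read -0.004. Mfap4 and Mfap2 passed with the random block, and Loxl1, Plod2 and Ltbp3 did not (limma adjusted p = 0.0516, 0.349 and 0.27). The shares that rose were 6 of 17, 5 of 13, 3 of 17 and 3 of 20 in the 4 lists, beside the 18.3% of all genes.

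**Figure D4:**
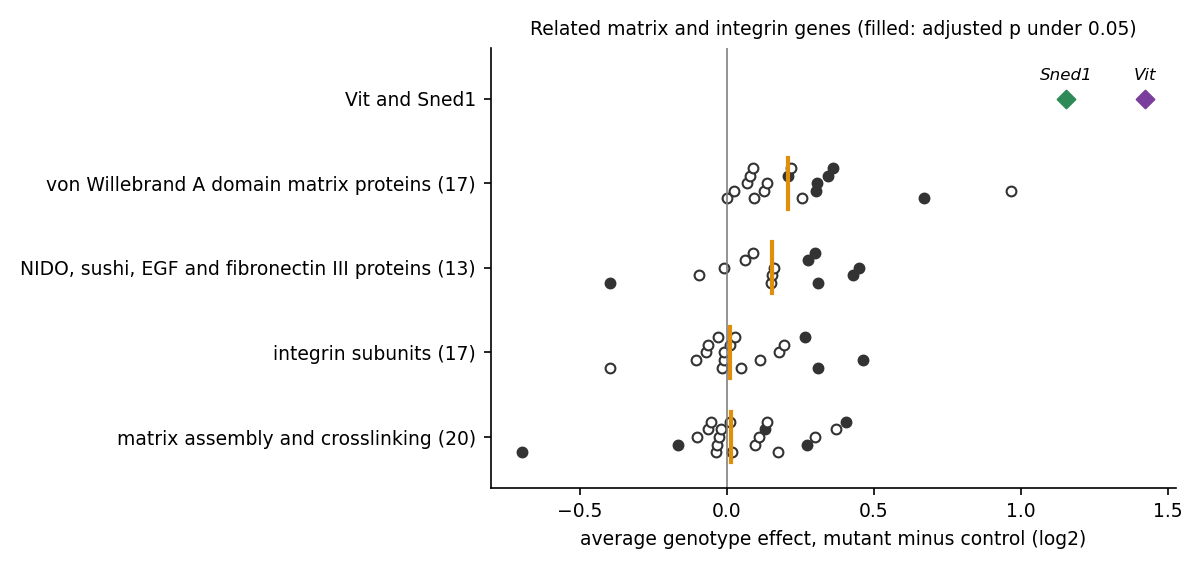
Average genotype effect in log2 (x axis, mutant minus control over 4 regions, n = 12 arrays each) for the tested genes of 4 lists (rows, number of genes in brackets), with Vit and Sned1 as diamonds in the top row. Filled points passed at an adjusted p under 0.05 with arrays as replicates and orange bars are list medians, which lie at 0.21, 0.15, 0.01 and 0.01. Matn1, at 0.97, is the open point nearest to Sned1.

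The lists were also read in the maxilla, where Vit and Sned1 were both lower distally in either genotype. In controls 3.37% of all genes were higher distally and 2.69% lower, and in mutants 2.48% and 2.66%. Between the ends of the control maxilla 2 of 17 von Willebrand A domain genes were higher and 2 lower distally (median -0.08), and 0 of 13 NIDO, sushi, EGF or fibronectin III genes were higher and 1 lower (median -0.04). Of integrins 2 of 17 were higher and 0 lower, and of assembly genes 0 of 20 were higher and 1 lower (median -0.26). In the mutant maxilla 1 of 17 von Willebrand A domain genes was higher and 0 lower. Of the 13 NIDO, sushi, EGF or fibronectin III genes 1 was higher and 2 lower there. Of integrins 2 of 17 were higher and 0 lower, and of assembly genes 0 of 20 were higher and 2 lower.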

How the data were processed

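Gene expression was measured on 24 Affymetrix mouse arrays. The deposited values are log2 levels, judged by their range. The authors made them with RMA, per the submitters' processing notes. Which version they ran, and which arrays were normalized together, are not given in the sources used. Of 45101 probe sets 34958 name 1 gene, 932 several and 9211 none. Array medians lay between 7.00 and 7.08.

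A gene's brightest probe set on average was used, and the gene was kept if 3 or more arrays had it above their own 40th percentile (13850 of 18194 genes). limma 3.58.1 in R 4.3.3 was fitted with 1 coefficient per group (lmFit and eBayes, 16 residual degrees of freedom). Errors of differences are moderated standard errors, and a call means a Benjamini-Hochberg adjusted p below 0.05, taken over all genes kept. The fit was tested on simulated data with independent noise on each array. That cannot show how the fit behaves where arrays of a set deviate together. In all 13 comparisons were tested, 2 of them chosen after seeing the data.

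Same-numbered arrays deviated together in 7 of the 8 comparisons between ends or jaws (lowest correlation 0.108). Between control proximal ends the correlations were uneven, from 0.00396 to 0.345. Between genotypes they were uneven too. They ran from -0.134 to 0.0408 in the distal mandible and from 0.0491 to 0.317 in the proximal mandible. In the distal maxilla they ran from 0.0509 to 0.403, and in the proximal maxilla from -0.0372 to 0.196. Such pairing rests on the data, since the labels are silent on it. The fit described did not pair the arrays, so its standard errors and p-values are unpaired. Pairing by number entered only as the replicate block, an alternative setting. The random block used statmod 1.5.0, with a correlation of 0.40.

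The genes, lists and markers were chosen with earlier results of these data known. Besides Vit and Sned1 and Tgfbr2, the text names up to 4 called members per direction of each list, the 5 genes most like each gene over group means and 3 over control arrays, and the 3 nearest protein-coding genes on each side. Other members were named after their values were seen. Names came from the platform annotation, and neighbours and the promoter from RefSeq (GRCm38.p6).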

Additional observations from a re-analysis of the deposited data

How the results depend on the processing

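Of 506 values of Vit and Sned1 recomputed under other settings, 473 kept their direction and their side of the threshold (or, for the genotype differences, stayed within 1 SD of replicates), 16 lost the call, 3 moved and 14 changed sign, and the cause was not tested. The replicate block changed no call of either gene. Leaving out 1 set at a time, or the distal maxilla array with high cartilage markers, gave these ranges for values that lost a call, moved or changed sign: -1.41 to -1.09 for Vit and -1.62 to -1.15 for Sned1 between the ends of the control maxilla, -1.47 to -0.96 for Sned1 between those of the mutant maxilla, and -0.66 to 0.057 for Sned1 between those of the control mandible. For mutant distal ends, mandible minus maxilla, they were -0.14 to 0.17 for Vit and -0.50 to 0.20 for Sned1. For the genotype effect of Sned1 they were 1.26 to 1.99 in the distal maxilla, -0.32 to 0.14 for the difference between ends and -0.93 to 0.0048 for the 3-way difference.

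With mutant set 2 as the only mutant set, the end difference of the mutant maxilla was -1.01 for Vit and -1.68 for Sned1, the jaw difference of mutant distal ends was -0.28 and 0.75, and the genotype effect of Sned1 was 0.61 in the distal maxilla and differed between jaws by 0.063. With mutant set 1 alone the end difference was -1.24 for Vit and -1.08 for Sned1, the jaw difference of Vit was -0.0030, and the genotype effect of Sned1 was 2.07 in the distal maxilla and differed between ends by 0.18. A lone array is assumed there to vary like the other groups. For Sned1 in the mutant maxilla the call was also lost with quantile normalization again and with no filter (both -1.20, adjusted p = 0.0504 and 0.056). Each gene has 1 probe set, so the mean of all probe sets changed only the genes tested around it.

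Counts of list members that rose ran from 0 to 7 (6 in the fit described) for von Willebrand A domain genes, 1 to 7 (5) for NIDO, sushi, EGF and fibronectin III genes, 0 to 6 (3) for integrins and 0 to 7 (3) for assembly genes. The lowest counts came with 1 value per set (0, 1, 0 and 0). Those that fell ran from 0 to 0, 0 to 1, 0 to 2 and 1 to 4. RMA values carry no detection call, so how far the low readings of Vit in control distal tissue stand above background is not known.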
